A study of Caenorhabditis elegans with 2 samples.

Results

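The regions described are 487 peaks from immunoprecipitation of the tagged worm transcription factor HLH-15, which are not shown binding sites. They lie just upstream of protein-coding genes on the 5 autosomes of Caenorhabditis elegans and away from small RNA genes. They were taken from the authors' list of peaks and background made on both libraries pooled, which holds 17654 regions. A peak was included when its signal value was 40 or more, when its summit lay 0 to 1000 bp upstream of an annotated protein-coding transcript start, and when the summit was more than 100 bp from every tRNA, snoRNA and snRNA gene. They are 2.76% of the pooled list and 51.5% of its 945 autosomal peaks that reach a signal of 40. The signal value is a score per peak that the authors' files give without a stated scale. The peaks were chosen by signal, position before a start and distance from small RNA genes, so these 3 measures are given as descriptions only.

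The data are chromatin immunoprecipitation followed by sequencing (ChIP-seq) on whole hermaphrodite late embryos of strain OP566, genotype unc-119(tm4063) III; wgIs566. The transgene wgIs566 makes HLH-15 with GFP and FLAG at its C terminus, and the description field names an antibody against GFP while the antibody field names hlh-15. Both libraries, biological replicates 1 and 2, form the only group: embryos 3 h after synchronisation by egg bleaching, with sonicated chromatin. The unc-119 mutation and the transgene are carried by both, no untagged or other-stage group is among these samples, and signal from whole embryos cannot be assigned to a cell type.

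HLH-15 belongs to the basic helix-loop-helix (bHLH) family, whose members bind DNA as dimers, typically at E-boxes, the motif CANNTG. In worms, many genes are packed closely, and some are transcribed as operons: a run of genes on the same strand is copied from a promoter ahead of the first, and the transcript is cut into separate messages by trans-splicing. Operons are known to hold many genes that most cells use. At a divergent promoter, a pair of genes on opposite strands start back to back and share the DNA between them. Since trans-splicing removes the original 5′ end of many worm messages, annotated starts can lie downstream of where transcription begins.

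The sequences below show the DNA that the results turn on, on the ce11 assembly (WBcel235). The first is the whole stretch between the starts of uncp-18 and ears-2, at chrIV:390469-390559, plus strand, under the strongest divergent peak. Its capitals mark TTTCGC, which reads GCGAAA on the other strand, and CCGCAC, both 6-mers described further on. The second is the 121 bases around the summit of the strongest peak of all, upstream of K12H4.5, at chrIII:8043906-8044026, plus strand, with TTTCGC in capitals.
uncp-18/ears-2: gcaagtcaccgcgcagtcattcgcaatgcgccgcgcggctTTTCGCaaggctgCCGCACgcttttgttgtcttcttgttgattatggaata
K12H4.5: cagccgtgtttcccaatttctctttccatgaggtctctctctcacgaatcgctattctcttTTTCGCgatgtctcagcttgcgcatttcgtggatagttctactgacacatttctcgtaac

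The next 4 show an 8-mer that contains CCGCAC, written GCCGCACG on the printed strand and in capitals, with 20 bases to each side. They are the strongest peaks that hold it after uncp-18/ears-2, at chrIII:4568727-4568774 (minus strand), chrIII:10759153-10759200 (minus), chrIII:3664422-3664469 (plus) and chrIII:2768834-2768881 (plus).
idhg-1/mlcd-1: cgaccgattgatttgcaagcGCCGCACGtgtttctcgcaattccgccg
tasp-1/K01G5.10: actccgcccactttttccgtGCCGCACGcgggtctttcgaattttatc
C46F11.4: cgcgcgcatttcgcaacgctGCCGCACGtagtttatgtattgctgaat
swsn-3: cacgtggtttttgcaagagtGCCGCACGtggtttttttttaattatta

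The last sets show 3 further 10-mers, in capitals. TGGCCTAGAA and ACTCCTCTCG lie close together at C07H6.2/cux-7 and Y65A5A.2, where their printed stretches overlap. TGGCCTAGAA is shown at chrV:13468350-13468399 (minus), chrIII:7520835-7520884 (minus) and chrIV:16415265-16415314 (plus).
F25H9.7/F25H9.6: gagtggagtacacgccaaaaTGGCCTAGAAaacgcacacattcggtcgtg
C07H6.2/cux-7: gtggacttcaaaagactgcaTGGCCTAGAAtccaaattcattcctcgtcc
Y65A5A.2: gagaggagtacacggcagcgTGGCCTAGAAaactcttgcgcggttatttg

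ACGAAAAGGG is shown at chrIII:3499967-3500016, chrIV:3050754-3050803 and chrIV:385509-385558, all on the minus strand; the 10-mer or a close variant recurs within these stretches.
M01F1.9: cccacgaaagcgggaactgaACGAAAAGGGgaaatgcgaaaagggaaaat
eel-1: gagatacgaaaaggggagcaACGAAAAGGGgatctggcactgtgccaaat
rps-24: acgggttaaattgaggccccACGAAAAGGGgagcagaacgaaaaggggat

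ACTCCTCTCG is shown at chrIII:7520794-7520843 (minus), chrIV:16415244-16415293 (minus) and chrIV:1596005-1596054 (plus), where it is followed by GACAA each time.
C07H6.2/cux-7: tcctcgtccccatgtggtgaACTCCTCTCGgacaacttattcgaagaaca
Y65A5A.2: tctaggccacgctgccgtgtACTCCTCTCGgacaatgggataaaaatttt
npp-8: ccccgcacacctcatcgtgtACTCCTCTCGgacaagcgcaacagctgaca

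The depth of the libraries is not given in the files used here, so the number of reads behind a peak is unknown. The replicate lists hold 21250 regions for replicate 1 and 30000 for replicate 2. Whether their signal values share a scale with each other and with the pooled list is not stated, so values of one peak are set side by side and not averaged. The transgene's own genes are not among the 487: the highest pooled signal within 1 kb was 30.6 at unc-119 and 22.5 at hlh-15, which is on the X chromosome, and no pooled region lay within 1 kb of hlh-2, which encodes the worm E/Daughterless bHLH protein.

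Of all 4281 autosomal promoter peaks away from small RNA genes, 11.4% reached the signal of 40, and the other 3794, below it, serve as the comparison throughout as weaker promoter peaks. Among all autosomal pooled peaks, 6.38% reached 40. The median pooled signal of the 487 was 50.5, with quartiles of 43.9 and 67.0 and a range of 40.03 to 586.7. Just inside the limit were the peaks upstream of fbxo-11.2, vps-39 and K04B12.2, with signals of 40.11, 40.04 and 40.03. Just outside were those of npp-4, ruvb-2 and the pair F35D11.4/coa-3, with 39.98, 39.90 and 39.89. The authors' list of peaks that passed their irreproducible discovery rate (IDR) threshold, a measure of agreement between replicates, begins at a signal of 58.9. Of the 487, 174 reach that signal. They were counted by this cut and not by matching regions to the list. Most of the 487 have the same width, 476 bp in 481, and merging those that overlap leaves 458 separate regions.

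Chromosomes I to V hold 109, 100, 107, 82 and 89 of the peaks. Chromosome III has 22.0% of them (Wilson 95% interval 18.5 to 25.9) and 15.3% of the autosomal protein-coding genes. Chromosome V has 18.3% (15.1 to 22.0) and 29.0% of the genes. All such intervals cover counting error only, and peaks are not replicates of a condition.

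The strongest peak, upstream of K12H4.5, stood apart, with a pooled signal of 586.7, or 337.3 in replicate 1 and 251.4 in replicate 2 alone. Its summit was 521 bp before K12H4.5, whose product RefSeq calls uncharacterized. K12H4.5 heads a run of 4 same-strand genes in which spcs-3, for a subunit of the signal peptidase complex that trims secreted proteins, comes next after 236 bp. The peak with the next highest signal lay between uncp-18, which RefSeq annotates as syntaxin-binding protein 1, and ears-2, for a mitochondrial glutamyl-tRNA synthetase. Its pooled signal was 280.8, and the replicate lists gave 173.3 for replicate 1 and 107 for replicate 2. Its summit was 65 bp from the start of uncp-18 and 27 bp from that of ears-2. These peaks also had the highest values of the 487 in each library.

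M01F1.9, which encodes a protein with an arrestin domain, had a peak of 252.4, with 160.7 in replicate 1 and 90.5 in replicate 2. The summit was 965 bp before its start, near the far edge of the 1000 bp allowed, and inside another protein-coding gene, M01F1.8. The peak between snr-1, for the spliceosomal protein Sm D3, and snx-13, for a sorting nexin of endosomes, reached 213.6, with 133.9 and 81.2 in replicates 1 and 2. That between lin-35, the worm retinoblastoma homolog, and vps-51, for a subunit of a vesicle tethering complex, reached 195.2, with 106.6 and 86.0. Next came the pair idhg-1, for a subunit of mitochondrial isocitrate dehydrogenase, and mlcd-1, for malonyl-CoA decarboxylase, at 192.2, with 102.7 in replicate 1 and 87.4 in replicate 2. The pair atx-2, the ataxin-2 homolog, and ecps-1, which shares a domain with the proteasome factor Ecm29, had 185, with 114.6 and 70.2. These 7 peaks had higher listed values in replicate 1 than in replicate 2, as did most others, though a shared scale is not stated.

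Of the 487 peaks, 179 lay at divergent promoters, with the summit 0 to 1000 bp upstream of a start on each strand, which is 36.8% (32.6 to 41.1). The other 308 lay upstream of genes on a single strand. Among weaker promoter peaks 522 of 3794 were divergent, or 13.8%, and of all autosomal positions within 1000 bp upstream of a start 8.48% lie upstream of a start on each strand. Promoter peaks of signal 40 or more on the X chromosome were divergent in 4 of 54, or 7.41% (2.92 to 17.6). Of the 20 strongest autosomal promoter peaks 13 were divergent. From the lowest signals to the highest the divergent share was 12.5% under 25, 11.9% between 25 and 30, 20.2% between 30 and 40, 31.4% between 40 and 60, 43.2% between 60 and 100 and 58.1% (43.3 to 71.6, 25 of 43) at 100 or more. These classes are cut on the value that chose the peaks, so this order is a description.

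**Figure D1:**
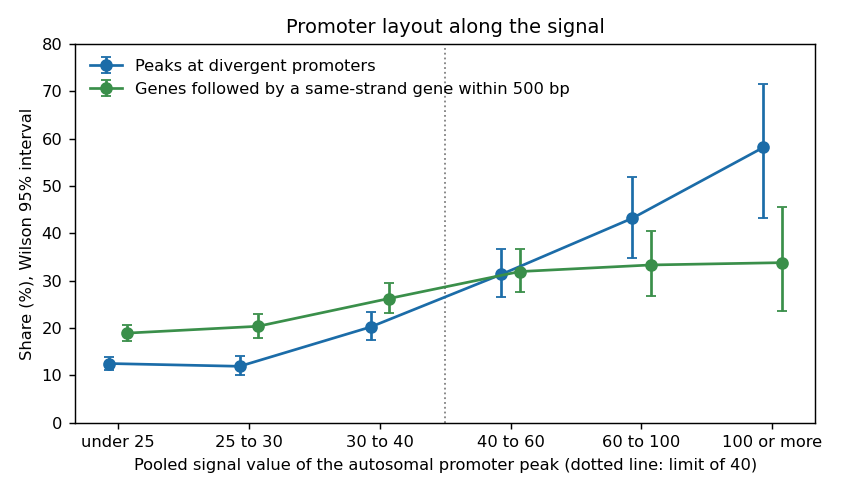
Share of autosomal promoter peaks at divergent promoters and share of their genes followed by a same-strand gene within 500 bp, in %, by class of pooled signal, with Wilson 95% intervals as bars; the dotted line is the limit of 40. The divergent share is 12.5% in the lowest class and 58.1% in the highest, and the share of genes with a close follower is 18.9% and 33.8% in the same classes.

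Because distance to a start enters both the choice of the peaks and their layout, the divergent share was also set out by distance to the nearest start. With the nearest start less than 200 bp away, 110 of 209 of the peaks were divergent, 52.6% (45.9 to 59.3), against 26.6% (24.0 to 29.3) of weaker promoter peaks. Between 200 and 499 bp the shares were 33.0% (26.7 to 39.9) and 14.7% (12.8 to 16.8). From 500 to 1000 bp they were 6.90% (3.20 to 14.2, 6 of 87) and 4.31% (3.40 to 5.44), whose intervals overlap. The higher divergent share was thus seen at distances under 500 bp.

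Summits lay a median of 228 bp before the nearest start, with quartiles of 131 and 418 bp, against a median of 397 bp for weaker promoter peaks. At divergent promoters the median was 159 bp to the nearer start and 426 bp to the farther, and at single promoters it was 297 bp. The bin with the most summits was 100 to 150 bp, with 13.8% of the 487, and 7.01% of weaker promoter peaks. The starts of the divergent pairs were a median of 589 bp apart (quartiles 382 and 815), against 704 bp for divergent weaker peaks. The summit fell inside a protein-coding gene, whether another gene or one with a further transcript start upstream, in 22.6% of the peaks, 9.50% of the divergent and 30.2% of the single, against 45.0% of weaker promoter peaks.

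**Figure D2:**
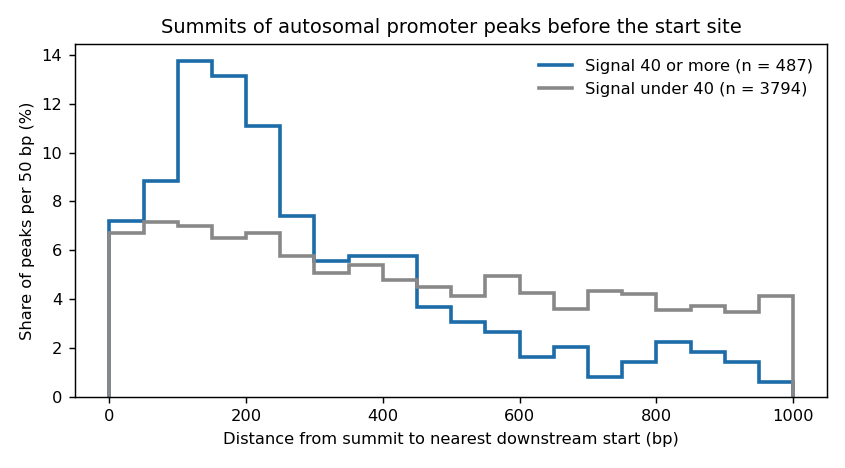
Distance in bp from the summit to the nearest downstream protein-coding start, as the share of peaks per 50 bp, for autosomal promoter peaks of signal 40 or more (n = 487) and under 40 (n = 3794). The stronger peaks have their highest share, 13.8%, between 100 and 150 bp, while the weaker ones spread over the whole range.

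The median pooled signal was 55.7 at divergent and 48.9 at single promoters, a log2 difference of 0.19. In replicate 1 the medians were 35.3 at divergent and 32.7 at single promoters, a log2 difference of 0.11, and in replicate 2 they were 25.1 and 20.97, a difference of 0.26. The ranges overlap almost wholly, 40.17 to 280.8 at divergent and 40.03 to 586.7 at single promoters. The lowest signal of the IDR list was reached by 46.4% of the divergent peaks and 29.5% of the single ones.

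**Figure D3:**
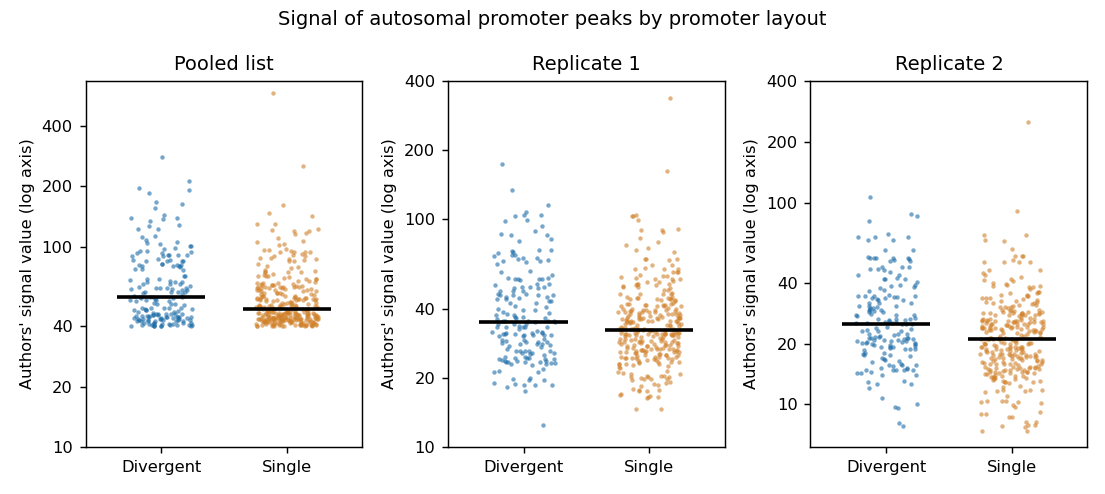
Signal value of each of the 179 divergent and 308 single promoter peaks in the pooled list and in each replicate, on a log axis whose scale differs between panels, with the median as a black line. Points scatter sideways at random; the medians are 55.7 at divergent and 48.9 at single promoters in the pooled list, and the distributions overlap in each panel.

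Nearly every peak was found in each library: 481 had a region in replicate 1 and 477 in replicate 2. The pooled list was made from the same libraries, so this is no independent support. Any overlap with the 21250 and 30000 regions of the replicate lists counted, and the same share for weaker promoter peaks is not given here. Over the 471 with a signal in both, the replicate signals had a Spearman correlation of 0.43 and a Pearson correlation of 0.55 on the log2 scale, given as a description across peaks that share their libraries. Each peak took the strongest region it overlapped in a replicate, so neighbouring peaks, such as those of eel-1, can share their replicate values. The 945 strongest autosomal peaks of each replicate were also taken. This is no check of agreement either, since the signal that chose the 487 came from the same libraries: 213 of the 487, or 43.7%, overlapped such a peak in both, against 1.40% of weaker promoter peaks. At or above the IDR list's lowest signal this held for 91.4% of 174 peaks, and below it for 17.3% of 313. The divergent peaks met it in 53.1% and the single ones in 38.3%.

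Replicate 1 gave the higher value at 402 of the 471 peaks, with a median log2 ratio of replicate 1 to replicate 2 of 0.64. The ratio was highest at fbxl-2, an F-box gene, with 45.4 in replicate 1 and 7.76 in replicate 2, followed by ift-43, for an intraflagellar transport protein, with 44.3 and 7.78, and pafo-1, for a factor associated with RNA polymerase II, with 43.4 and 7.91. It was lowest at the divergent pair knl-3, a kinetochore gene, and T10B5.3, with 12.5 in replicate 1 and 41.9 in replicate 2. The pair Y57E12AL.1/Y57E12AL.6 had 19.5 and 41.7, and cept-2 had 19.2 and 38.5. Each of these 6 had a pooled signal between 43.0 and 64.7.

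The 487 peaks lie upstream of 622 genes, 3.61% of the 17242 autosomal protein-coding genes; 44 of these genes have more than 1 of the peaks. The annotation used holds no operons, so close same-strand spacing was counted instead, which includes pairs that are not operons. Of the 622 genes, 205 are followed by a same-strand gene within 500 bp, 33.0% (29.4 to 36.8), against 20.3% (19.0 to 21.7) of the 3455 genes with weaker promoter peaks alone and 18.5% of all autosomal protein-coding genes. Conversely, 10.5% of the 622 are preceded within 500 bp by a same-strand gene, against 15.7% of genes with weaker promoter peaks alone and 18.5% of all. A divergent layout leaves little room for such a gene, and 1 of 340 genes of divergent peaks has it. Among genes of single peaks 64 of 290 do, 22.1% (17.7 to 27.2). The lower share over the 622 was thus seen at divergent peaks and not at single ones.

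Genes inside a run were then set aside. Among genes with no same-strand gene within 500 bp before them, 182 of 557 (32.7%, 28.9 to 36.7) were followed closely, against 19.3% (17.9 to 20.8) with weaker promoter peaks alone and 16.9% of all such genes. Runs of 3 or more genes were headed by 53 of the 622 (8.52%, 6.57 to 11.0), against 4.37% (3.74 to 5.10) of genes with weaker peaks alone and 3.31% of all. The gap to the follower, where under 500 bp, had a median of 113 bp (quartiles 96 and 219), against 184 bp (102 and 337) over all autosomal genes. Short gaps of this order are typical of worm operons.

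Genes of divergent peaks were followed closely in 35.9% (31.0 to 41.1) and genes of single peaks in 29.7% (24.7 to 35.2), with overlapping intervals. At 26 of the 179 divergent promoters, 14.5%, the genes on both strands had a close follower, so that a single peak lay between the heads of opposite runs. The strongest of these was the pair tag-267/tag-266, with a pooled signal of 138, or 92.7 in replicate 1 and 48.1 in replicate 2 alone. On 1 side tag-267 leads a run with W06E11.1 and orai-1, for a calcium channel of the plasma membrane. On the other, tag-266 leads 5 genes that include sbds-1, for a ribosome maturation protein, and fem-2, for a phosphatase of sex determination.

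Among other strong peaks at such runs, that between C16C10.4, a predicted histone deacetylase complex subunit, and rnf-121, an E3 ubiquitin ligase, had 163.2, with 98.8 in replicate 1 and 65.1 in replicate 2. There rnf-121 is followed after 11 bp by ccdc-55, a splicing regulator, and then by rnf-5 and C16C10.8. The single peak at K05C4.2, a jagunal homolog, had 147.4, with 103.7 and 39.1, and the proteasome gene pbs-5 follows K05C4.2 after 110 bp. The summit of this peak lay inside K05C4.2 itself, 303 bp before an annotated start of that gene. The peak between Y41D4A.4 and Y41D4A.6, for a mitochondrial amidotransferase subunit, had 156, with 103.7 and 53.1, and ptpn-22 follows Y41D4A.6 after 184 bp. At hach-1, a mitochondrial enzyme of valine breakdown, the peak had 133.7, with 88.1 and 43.9, and the RNA polymerase gene rpc-2 follows after 46 bp. The genes in a run therefore include some that the nearest-gene lists do not count.

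The genes were sorted by 25 lists built from gene names. In 13 lists of genes that most cells use, the share with a peak of signal 40 or more lay above the 3.61% over all autosomal genes, with the whole interval above it. The proteasome and the histones, which most cells use too, had intervals that include it. The highest share was that of the tricarboxylic acid cycle, 4 of 15 genes (26.7%, 10.9 to 52.0), followed by translation factors with 9 of 39 (23.1%), nuclear pore and transport with 9 of 40 (22.5%) and cytosolic ribosomal proteins with 16 of 81 (19.8%). Chromatin factors had 10 of 53 (18.9%), chaperones 9 of 54 (16.7%) and the respiratory chain with ATP synthase 10 of 61 (16.4%). The shares were 12.5% for aminoacyl-tRNA synthetases (4 of 32), 12% for splicing and for DNA replication and repair (6 of 50 each), 10.9% for RNA polymerases and general transcription (6 of 55), 8.93% for vesicle trafficking (10 of 112) and 8.57% for mitochondrial ribosomal proteins (6 of 70).

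Lists of genes used by particular cells or in particular conditions were at or below the background. Chemoreceptors, the large families by which sensory neurons detect odours and tastes, had a peak at 5 of 1276 genes, 0.392% (0.168 to 0.914). Nuclear receptors had 1 of 246 (0.407%), C-type lectins 2 of 237 (0.844%), F-box genes of the fbxa, fbxb and fbxc families 4 of 305 (1.31%), and cuticle collagens 2 of 143 (1.40%, 0.384 to 4.96). No gene of neuropeptides and insulin-like peptides (0 of 106, up to 3.50%), of cytochromes P450 and UDP-glucuronosyltransferases (0 of 130, up to 2.87%) or of major sperm proteins (0 of 31, up to 11.0%) had such a peak. Homeobox factors (2 of 60), bHLH factors (1 of 31), histones (2 of 68) and the proteasome (1 of 33) had shares between 2.94% and 3.33%, with intervals that include the background.

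**Figure D4:**
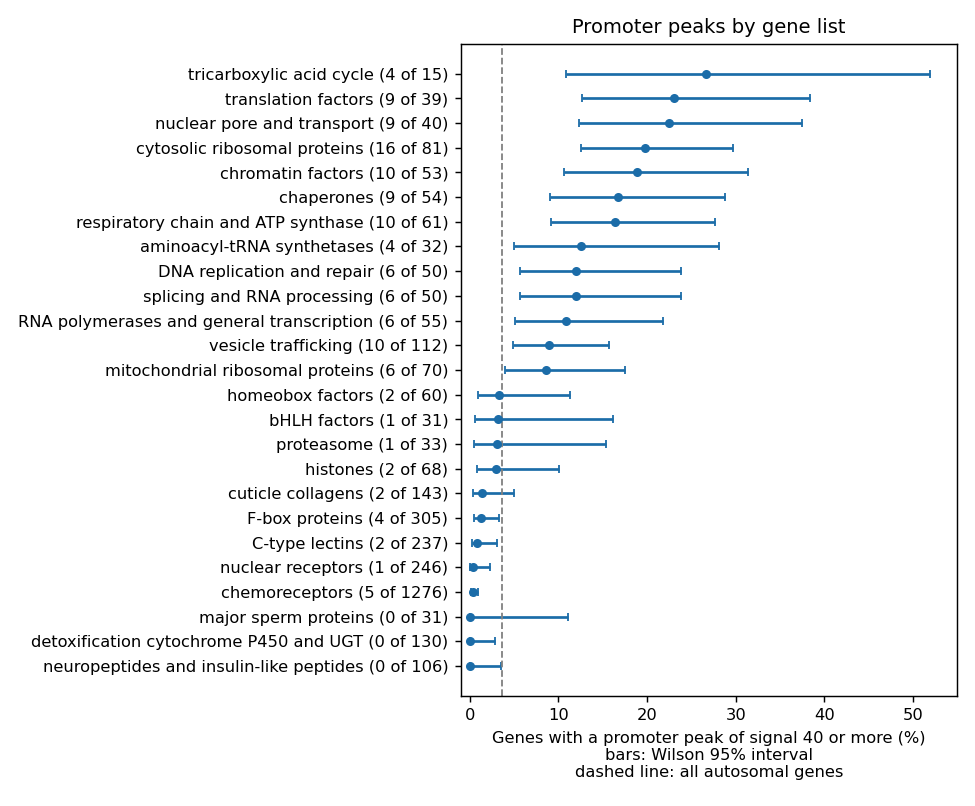
Share, in %, of the autosomal genes of each list with a promoter peak of signal 40 or more, with Wilson 95% intervals as bars, counts beside the names and all autosomal protein-coding genes (3.61%) as a dashed line. The tricarboxylic acid cycle is at the top with 26.7%, and 3 lists at the bottom have no such gene.

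The lists also differ in how often they have any promoter peak, since 20.04% of all autosomal protein-coding genes have weaker promoter peaks alone but 46.9% of cytosolic ribosomal protein genes and 9.25% of chemoreceptors do. Among the 4077 genes with a promoter peak of any strength, 15.3% had a peak of 40 or more. On that base 7 of the 13 lists kept a whole interval above the background: chromatin factors with 41.7% (24.5 to 61.2, 10 of 24), chaperones with 39.1% (22.2 to 59.2, 9 of 23), nuclear pore and transport with 34.6% (19.4 to 53.8, 9 of 26), translation factors with 33.3% (18.6 to 52.2, 9 of 27), the respiratory chain with 32.3% (18.6 to 49.9, 10 of 31), RNA polymerases with 31.6% (15.36 to 54.0, 6 of 19) and cytosolic ribosomal proteins with 29.6% (19.1 to 42.8, 16 of 54). The other 6 had intervals that include it. These were the tricarboxylic acid cycle with 36.4% (15.17 to 64.6, 4 of 11), synthetases with 26.7% (10.9 to 52.0, 4 of 15), splicing with 25% (12 to 44.9, 6 of 24) and DNA replication and repair with 24% (11.5 to 43.4, 6 of 25). Mitochondrial ribosomal proteins had 21.4% (10.2 to 39.5, 6 of 28) and vesicle trafficking 20.8% (11.7 to 34.3, 10 of 48). Chemoreceptors had 4.07% (1.75 to 9.16, 5 of 123) and nuclear receptors 2.63% (0.466 to 13.5, 1 of 38), both below the background. The remaining lists with a promoter peak had between 0% and 20% (bHLH factors, 1 of 5), with intervals that include it.

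In the translation apparatus, rpl-3, for a protein of the large ribosomal subunit, had a peak of 119.5, with 74.0 in replicate 1 and 46.3 in replicate 2, and rps-24 of the small subunit had 105.5, with 71.7 and 37.2. The genes rps-19 and rps-26 had 86.2 and 85.8. Of the translation factors, 5 of the 9 genes encode subunits of the initiation complex eIF3, led by eif-3.C with 110.4, or 79.1 in replicate 1 and 30.4 in replicate 2; the termination factor erfa-3 had 104.4, with 69.6 and 29.99. The synthetase genes were ears-2, described above, kars-1 for lysine with 63.5, mars-1 for methionine with 48.0 and nars-1 for asparagine with 42.8, the last with no region in replicate 2. Of the mitochondrial ribosomal proteins mrpl-12, mrpl-39 and mrpl-18 were highest, at 62.3, 61.3 and 59.5.

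Energy metabolism included ndua-2, for a subunit of respiratory complex I, at 122.2, with 65.4 in replicate 1 and 53.2 in replicate 2. This peak is divergent and its other gene is dnj-29, a J-domain cochaperone, so 1 region counts in both lists. The cytochrome c oxidase gene cox-5A had 64.6. In the tricarboxylic acid cycle, idhg-1 was followed by dlst-1 with 67.5, dld-1 with 60.01 and ogdh-1 with 43.0, which encode the 3 components of the 2-oxoglutarate dehydrogenase complex. Among chaperones, dnj-28 had 90.5, hsp-1, the constitutive Hsp70, had 74.3 and hsp-60 of mitochondria 61.1.

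Among chromatin factors the highest signal was that of chaf-2, for a subunit of the chromatin assembly factor CAF-1, at 167.1, with 97.2 in replicate 1 and 67.3 in replicate 2. The demethylase gene jmjd-1.2 had 97.9, swsn-3 of the SWI/SNF remodelling complex 96.7 and hda-11, a histone deacetylase, 59.2. At swsn-3 the summit lay inside another gene, cox-6B. The nuclear pore gene npp-6 had 126.5, with 68.8 and 52.7, the importin gene ima-1 97.8 and npp-8 84.7. At npp-6 the summit lay inside spd-5, the gene on the other strand. In replication, mcm-10 had 112.2, with 69.4 and 46.8, and pola-1, for a DNA polymerase, 61.0. The summit at mcm-10 lay inside teg-1 on the other strand. In splicing, snr-1 was followed by prp-19 with 81.3. The transcription genes rpb-11 of RNA polymerase II and taf-12 of the initiation factor TFIID had 65.7 and 62.9. Outside the lists, lem-2, for a protein of the inner nuclear membrane, had 142, with 89.7 and 54.3, and the ubiquitin ligase gene eel-1 had 129.6, with 89.0 and 50.7.

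A peak counted in a low list could also lie upstream of a gene on the other strand. For the chemoreceptor sre-1, at a pooled signal of 144.5, the summit was 955 bp from its start and 39 bp from that of B0495.9 on the other strand, which leads a run with the splicing factor gene luc-7L. The other chemoreceptors were srh-16 with 90.9, sri-5 with 81.7, srz-62 with 50.8 and sri-37 with 44.4. The nuclear receptor was nhr-142 at 79.8, the collagens col-71 at 59.1 and col-2 at 45.9, and the F-box genes were led by fbxb-85 at 77.3 and fbxc-44 at 71.2. The bHLH gene was hlh-11, at 44.9, with 34.0 in replicate 1 and 15.3 in replicate 2. The homeobox list gave ceh-92, at 40.5, and lim-9, at 42.3, whose product is a LIM zinc-binding protein and not a homeobox factor. The histone genes were his-31 at 49.0, with the summit inside his-32, and his-35 at 44.6. Histone genes have near-identical copies, so reads there may belong to other copies.

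Words in the RefSeq product names, chosen after they had been looked at, gave a like order. "Mitochondrial" is in 37 of 622 products (5.95%, 4.35 to 8.09), against 2.26% for genes with weaker promoter peaks alone and 1.58% over all autosomal genes. "Ribosom" is in 4.66% against 2.17% and 1.19%, and "ubiquitin" in 2.41% against 1.22% and 0.870%. "Kinase" is in 2.09% (1.23 to 3.54), against 2.90% and 2.66%, and "receptor" in 1.45% (0.763 to 2.73), against 6.28% and 11.3%. Genes called uncharacterized protein made up 4.02%, against 6.92% and 8.82%.

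Windows of 201 bp centred on the summits had a median GC content of 39.8% (quartiles 35.3 and 44.3). Windows 500 bp to each side had 37.3%, and windows at weaker promoter peaks 35.8%. Promoter peaks of signal 40 or more on the X had 47.5%, and the 291 other autosomal peaks of 40 or more 40.8%. The GC content was highest in a narrow band. In bins of 21 bp it was 44.6% at the summit of divergent and 43.5% of single promoter peaks, against 36.7% at weaker promoter peaks. At 100 bp after the summit it was 32.3% at divergent and 37.1% at single promoters, and at 100 bp before, 33.3% and 36.4%. The dip to both sides of the GC-rich core was seen at divergent promoters.

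**Figure D5:**
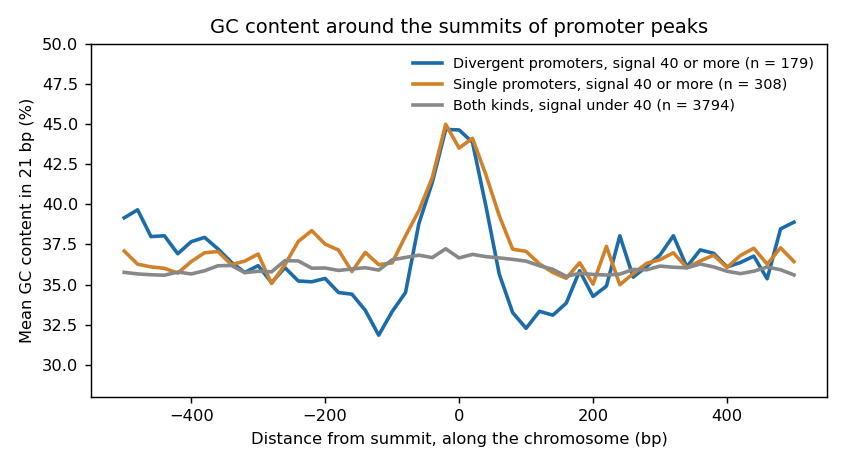
Mean GC content, in % in bins of 21 bp, by distance from the summit along the chromosome, for divergent (n = 179) and single (n = 308) promoter peaks of signal 40 or more and for promoter peaks of both kinds under 40 (n = 3794). Both stronger classes reach 44 to 45% near the summit, the divergent class dips to 32 to 34% about 100 bp away, and the weaker peaks stay near 36 to 37%.

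The 2080 distinct 6-mers, counted on both strands, were ranked by their excess over weaker promoter peaks in percentage points. The largest excess was that of GCGAAA, in 163 of 487 windows (33.5%, 29.4 to 37.8). It is in 17.4% of the flanking windows, 17.03% of the windows at weaker promoter peaks and 12.7% of 17242 windows of the same length at all autosomal promoters, centred 228 bp before the start. Next were GAGCGC, in 21.1% against 4.62%, 6.22% and 3.65% in the same 3 comparison sets, and GCGCAC, in 19.5% against 2.87%, 6.30% and 4.07%. CCGCAC, which had led an earlier search in overlapping peaks and is therefore not an independent choice, ranked 5, in 85 windows (17.5%, 14.3 to 21.1). It is in 2.77% of the flanks, 4.56% of windows at weaker promoter peaks and 3.00% of all promoter windows. By excess over the flanks instead, GCGCAC ranked 1, GCGAAA 5 and CCGCAC 6. GCGCAC and CCGCAC share the letters CGCAC: 163 windows (33.5%) hold 1 or both, 17 of them both, against 10.4% of windows at weaker promoter peaks. A match is a string of letters and not a shown binding site.

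The median distance from the summit, within 100 bp to each side, was 25.5 bp for CCGCAC, 27.5 bp for GCGCAC, 30.5 bp for GAGCGC and 40.5 bp for GCGAAA. For the 5 6-mers with the largest deficit it was between 37.5 bp (CAAAAG) and 63 bp (ATCAAA), a range that includes the value of GCGAAA. From low to high signal CCGCAC was in 4.004% of windows under 25, 5.33% from 25 to 30, 5.28% from 30 to 40, 15.1% from 40 to 60, 19.2% from 60 to 100 and 30.2% (18.6 to 45.1, 13 of 43) at 100 or more. The signal that chose the peaks also cuts these classes, and CCGCAC came from overlapping peaks, so this order is a description. Since all these 6-mers are rich in G and C, the share was set out by the GC content of the window. Under 36% GC, CCGCAC was in 5.22% (2.55 to 10.4) of the peaks and 2.11% (1.55 to 2.85) of weaker promoter peaks, with overlapping intervals. From 36 to 42% it was in 20.1% (14.9 to 26.6) and 5.59% (4.37 to 7.13), and at 42% or more in 24.1% (18.4 to 31.0) and 8.89% (7.13 to 11.0). GCGCAC was in 14.2% and 3.68%, 17.9% and 8.02%, and 25.3% and 10.1% in the same bands.

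No 6-mer of these 4 differed between divergent and single promoters beyond the counting intervals. CCGCAC was in 19.0% (13.9 to 25.4) of divergent and 16.6% (12.8 to 21.1) of single windows, GCGAAA in 32.4% and 34.1%, GAGCGC in 22.3% and 20.5%, and GCGCAC in 24.6% (18.9 to 31.4) and 16.6% (12.8 to 21.1); intervals overlap for each. At single promoters CCGCAC read along the strand of the gene in 21 and along the other strand in 35. Among the strongest peaks, CCGCAC was in the windows of uncp-18/ears-2, idhg-1/mlcd-1, atx-2/ecps-1, K05C4.2, sre-1/B0495.9 and lem-2. GCGAAA was in those of K12H4.5, uncp-18/ears-2, M01F1.9, atx-2/ecps-1, K05C4.2 and Y51F10.11/spe-48. Among the 6-mers that are rarer than at weaker promoter peaks, ATCAAA was lowest, in 12.7% against 25.04%, and TCTGAA was in 13.96% against 23.6%.

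E-boxes as a class were not more frequent at the summits: any of the 10 types was in 46.6% (42.2 to 51.1) of the windows, 51.1% of the flanks, 50.3% of windows at weaker promoter peaks and 51.9% of all promoter windows. Of the types, CAAGTG was in 13.1% (10.4 to 16.4), against 7.08% of flanks, 8.28% at weaker promoter peaks and 8.04% of all promoter windows. CACGTG was in 3.49% (2.19 to 5.52), against 4.82%, 3.87% and 3.17%. CAGATG was in 3.29% (2.03 to 5.27), against 9.96%, 7.83% and 7.12%, and CACCTG in 2.26% (1.27 to 3.999), against 5.03%, 4.61% and 4.63%. CAGCTG was in 3.08% (1.88 to 5.02), against 4.93%, 3.74% and 3.54%. These windows are richer in GC than the weaker ones, and the part of that difference in these shares was not tested.

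The 8-mer GCCGCACG, shown in full above, was in 29 windows (5.95%, 4.18 to 8.42), against 0.103% of flanks, 0.395% of windows at weaker promoter peaks and 0.255% of all promoter windows. Of 66 autosomal pooled peaks that hold it near the summit, 33 reach a signal of 40, and 14 of the 29 are divergent. The 3 longer words were chosen as those that led over weaker promoter peaks without sharing most of their peaks, so their excess is a description. TGGCCTAGAA was in 24 windows (4.93%), against 0.738% at weaker promoter peaks, and 12 of the 24 are divergent. It occurs 3158 times on the autosomes, so most copies have no such peak, and of 174 autosomal peaks that hold it 28 reach 40. ACGAAAAGGG was in 20 windows (4.11%) against 0.237%, 3 of them divergent, and 21 of 46 autosomal peaks with it reach 40. Its peaks had a median signal of 67.5 and a highest of 252.4, at M01F1.9. ACTCCTCTCG was in 21 windows (4.31%) against 0.501%, and 22 of 52 autosomal peaks with it reach 40. On the autosomes the 8-mer occurs 681 times, ACGAAAAGGG 485 times and ACTCCTCTCG 315 times. Most copies of these words have no such peak either.

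The 3 words were chosen in part for not sharing most of their peaks, so their small overlap is also a description. Together they were in 62 of the 487 (12.7%), against 1.45% of weaker promoter peaks. TGGCCTAGAA and ACTCCTCTCG shared 3 windows, ACGAAAAGGG shared none with either, and no window held the 8-mer with any of the 3. Other copies of the windows were counted, since reads from repeated DNA can be placed at the wrong copy. In all, 25 windows (5.13%, 3.50 to 7.47) had another copy of at least 100 bp at 90% identity or more elsewhere in the genome, against 5.27% (4.60 to 6.03) of windows at weaker promoter peaks. Any other match at an E value of 1e-5 was found for 105 (21.6%, 18.1 to 25.4), against 29.1% (27.7 to 30.6).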

How the data were processed

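The measurements are the signal values of ChIP-seq peak lists on assembly ce11, deposited by the authors. Per the notes deposited with the samples, each list of peaks and background was derived from the alignments of 1 library, or of both pooled, with a control, and the IDR list from these lists. For the aligner, the peak caller and the scale of the signal nothing was stated. The control was not analysed here, and no read counts or depth were in the files used.

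Starts and genes came from Ensembl release 115 (WBcel235), product names and nothing else from RefSeq. A summit was upstream of a start at 0 to 1000 bp. Windows were 201 bp, flanks were centred 500 bp away, and a close follower was the next gene on the same strand at a gap of 0 to 500 bp, with overlapping genes left out. Shares have Wilson 95% intervals. Copies were sought with BLAST 2.17.0, and other steps used Python 3.11.15 with numpy 2.4.6 and scipy 1.17.1. The assignment and the motif counts were tested on simulated data. With 1 group there was no contrast, and since signal chose the regions no test over regions was made.

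The members, lists, words and named genes were chosen with earlier results of these data known. Named genes were those of the 20 strongest peaks, of the 5 strongest of each layout, up to 4 per gene list, the 3 on each side of the limit, the 3 highest and lowest replicate ratios, the 6 strongest peaks with the leading 6-mers, hlh-15, hlh-2 and unc-119. The strongest peak between heads of opposite runs was named after its value was seen. Alternatives changed the list, the distances, the starts, the windows, the overlap and the libraries.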

Additional observations from a re-analysis of the deposited data

How the results depend on the processing

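Restricting the regions to those that reach the IDR list's lowest signal left 174, with a median GC content of 39.3%. Of these 47.7% were divergent, 21.3% held CCGCAC and 91.4% overlapped the strongest peaks of both replicates. An upstream distance of 500 bp lowered the divergent share to 28.3%, with a log2 signal difference between divergent and single promoters of 0.27 and a GC content of 39.3%. Using 1 start per gene gave a GC content of 39.3%. With a gap of 250 or 1000 bp, 26.5% and 40.2% of genes had a close follower. Windows of 50 bp to each side gave 12.5% with CCGCAC and a GC content of 44.6%, and windows of 200 bp a GC content of 36.7%. Lists made from 1 replicate gave log2 differences of 0.13 to 0.16, GC contents of 38.8 to 39.3%, 421 to 422 regions, 34.1 to 36.1% divergent, 30.3 to 34.2% with a follower and 14.96 to 15.9% with CCGCAC. Regions with no other match in the genome, an alternative chosen after seeing the data, gave a log2 difference of 0.22 and a GC content of 39.3%. The log2 difference, the value here that has a sign, was positive under each of its 8 alternatives. Of all 62 alternatives, 42 gave a share within the Wilson interval of the reported one, a count within 1.5 times it, or a median or log2 difference that moved by less than 1 SD between the lists made from each replicate. The ce10 list has 944 autosomal peaks of 40 or more, against 945 in ce11. No paired analysis was possible because there is 1 group. Unknown depth, the unstated signal scale and annotated starts limit the precision of every value.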
